A study of Homo sapiens with 5 samples.

Results

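Imprinted genes are described here in a human astroglial line, the established SVG-10B1, with and without the R132H substitution in one allele of IDH1. The gene set held 37 symbols, chosen by name as well-known human imprinted genes and not by a cut on any value. Earlier results of these data were known when they were chosen. All 37 were among the 57905 genes with counts; 27 had at least 10 reads over the 5 libraries, and 26 passed the filter on low counts that left 16471 genes for testing. The edited libraries were 1 of clone 2 and 2 of clone 6, both with the genotype IDH1 R132H/WT, and the unedited libraries were 2 of wild-type SVG-10B1, which the labels number clone 1. All groups were grown in DMEM with fetal calf serum, and total RNA was sequenced. Each edited line is a single clone, and no further unedited clone was analysed here, so an effect of the substitution and a difference between clones cannot be told apart. The labels do not say whether replicates were separate cultures, so each p-value reflects only the variation among these samples, possibly technical.

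Imprinted genes are expressed mainly from the copy inherited from one parent, because DNA methylation placed in the germline marks one allele at a control region. They lie in clusters in which a long non-coding RNA or an insulator often sets which genes are silent, and many act on growth, placenta or brain function. Substituted IDH1 makes 2-hydroxyglutarate, which inhibits dioxygenases, among them the TET enzymes that oxidise methylated cytosine. Gene counts carry neither allele nor methylation, so a level below can come from either parental copy or from both.

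Reads assigned to genes ranged from 13572114 to 16559077 in the edited libraries and from 17603317 to 21881726 in the wild-type libraries, and ribosomal RNA genes took 0.417 to 9.79% and 2.24 to 7.23% of them. Clone 2 and clone 6 replicate 1 were closer to each other than replicates of the same line were. Over genes with at least 100 reads summed over a pair, the SD of their log2 ratio was 0.173, against 0.473 within clone 6 and 0.254 within wild type. They still differed beyond sampling noise, with 1.74% of genes at p below 0.001 where 0.1% was the level for reads drawn from a single library, and were kept as separate samples. Results that rest on this pair are given below with the libraries left out. Of 11 astroglial markers 9 had at least 10 reads, AQP4 was at 0 and S100B had 1 read. GFAP, the intermediate filament of astrocytes, was at 0.437 ± 0.156 CPM in edited and 0.401 ± 0.0218 CPM in wild-type libraries (SD, n = 3 and 2), while vimentin (VIM) was at 655 ± 66.8 and 627 ± 58.2 CPM. The summed CPM of the astroglial list was 1091 to 1289 in edited against 809 to 882 in wild-type libraries, and its members moved both ways. GJA1 (389 ± 54.7 and 162 ± 8.38 CPM) and CLU (115 ± 20 and 35.9 ± 2.89 CPM) were called higher in edited libraries and NFIA (0.62 ± 0.193 and 4.2 ± 1.12 CPM) lower. For 8 neuronal markers, of which STMN2 was at 0, it was 25.6 to 26.5 against 13.0 CPM in both wild-type libraries, with GAD1 and INA called higher in edited libraries. For 8 fibroblast and pericyte markers, none at 0, it was 552 to 1741 against 1792 to 1998 CPM, the lowest value being that of clone 6 replicate 2. The part of these lists in the results below was not tested. CPM are reads per 1000000 reads, on library sizes scaled by the trimmed mean of M values.

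In the edited libraries GRB10, MEG3 and RTL1 rose and NDN and DIRAS3 fell relative to wild type, and the other 21 tested imprinted genes did not pass the test. These 5 of 26 genes (19.2%) were called by edgeR's quasi-likelihood test with Benjamini-Hochberg adjustment, at an adjusted p below 0.05, and every adjusted p below is of this kind. The background is close to that share. Of all 16471 genes tested, 17.1% were called, 7.64% higher and 9.49% lower in edited cells, so the number of calls is no result about imprinted genes. The median log2 fold change of the 26 genes was 0.11, with 16 above and 10 below 0 (52.4% and 47.6% of all genes tested), and their median absolute log2 fold change was 0.44. Over all genes tested these medians were 0.02 and 0.30. A change of at least 2-fold was fitted for 7 of the 26 genes (26.9%) and for 12.4% of all genes tested. The 7 include H19, DIRAS3 and ZIM2, which had few reads. Of these, DIRAS3 and ZIM2 reached the filter on low counts only through the group in which they were high. Edited and wild-type values did not overlap for 13 of the 26 genes (50%), 8 higher and 5 lower in edited libraries, against 51.5% of all genes (26.1% higher, 25.3% lower). The counts moved with single libraries, as did the share called of all genes. Without clone 6 replicate 2 they were 6 higher and 5 lower, where 36.9% of all genes were called. They were 2 and 1 without clone 6 replicate 1 (9.32% of all genes) and with either wild-type library left out (3.12% for replicate 1 and 4.34% for replicate 2), and 2 and 2 without clone 2 (9.69%). Of the 26 genes, 24 reached the 0.604 CPM that the filter asks for in both groups, DIRAS3 only in wild type and ZIM2 only in edited libraries. GRB10, MEG3 and NDN were called under all 13 alternative settings.

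**Figure D1:**
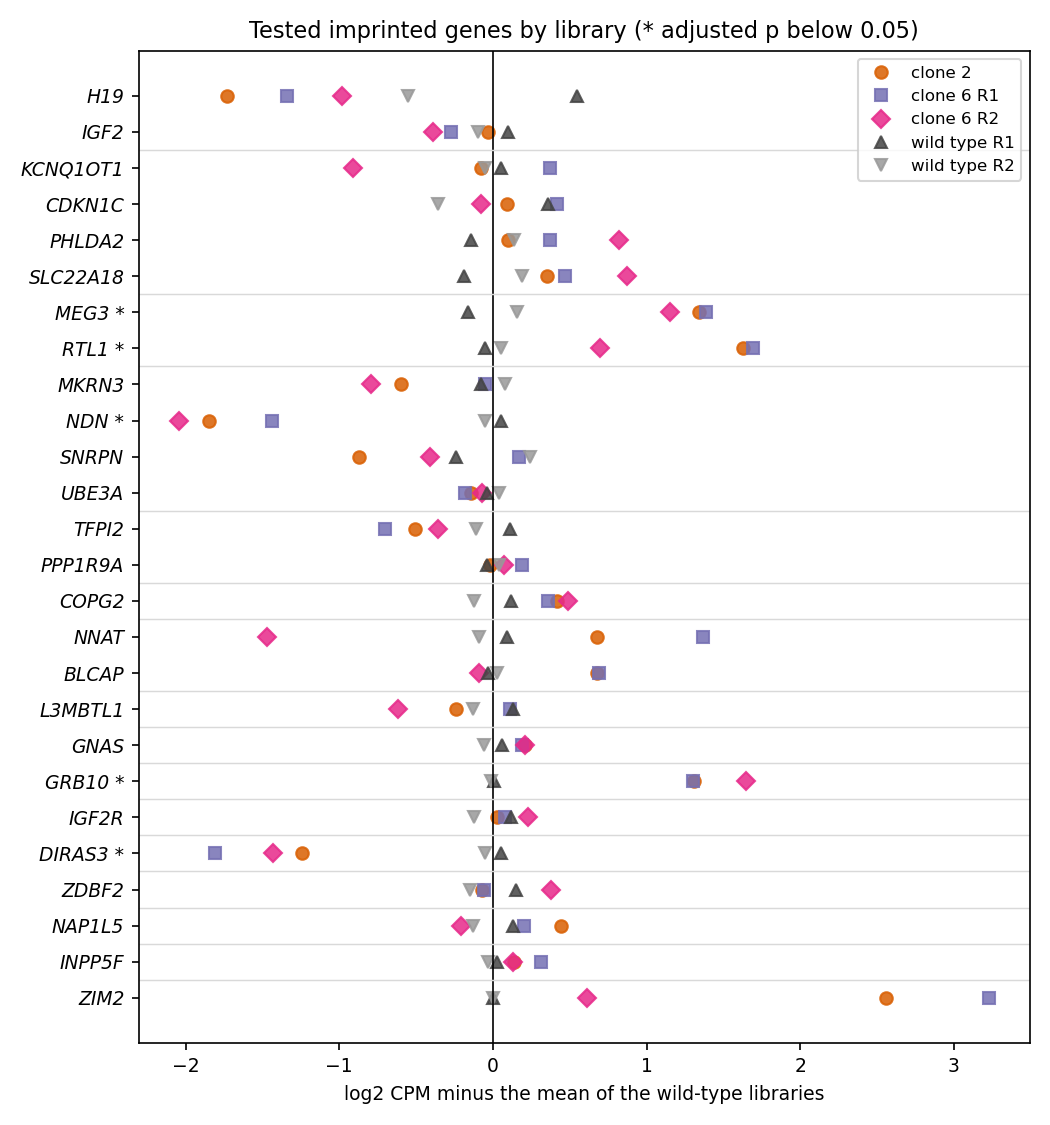
Difference of log2 CPM from the mean of the wild-type libraries for each of the 26 tested imprinted genes, 1 point per library, with genes of one cluster together and an asterisk at the 5 genes called in edited against wild type. GRB10 and MEG3 lie to the right of both wild-type points in every edited library and NDN to the left, while NNAT and KCNQ1OT1 lie on both sides within clone 6; the points of ZIM2 rest on 0 wild-type reads and the added prior count.

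Promoter sequences are shown for MEG3 and RTL1, which rose together from neighbouring positions on chromosome 14, and for NDN and DIRAS3, the only members called lower. Each is the window from 250 bases before to 50 after the annotated start, 5′ to 3′ on the gene's strand, from RefSeq (GRCh38.p14), with every CG dinucleotide, the site of DNA methylation, in capitals. MEG3 (chr14:100825858-100826157, plus strand) has 3 windows in the table, and the first is shown. The others are RTL1 (chr14:100903673-100903972, minus strand), NDN (chr15:23687256-23687555, minus strand) and DIRAS3 (chr1:68050578-68050877, minus strand).
MEG3: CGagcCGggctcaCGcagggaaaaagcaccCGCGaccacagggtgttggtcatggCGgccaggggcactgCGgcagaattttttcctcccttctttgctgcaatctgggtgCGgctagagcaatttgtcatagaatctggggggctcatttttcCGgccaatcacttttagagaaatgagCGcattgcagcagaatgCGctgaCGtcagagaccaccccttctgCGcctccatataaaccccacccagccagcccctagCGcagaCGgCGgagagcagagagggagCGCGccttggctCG
RTL1: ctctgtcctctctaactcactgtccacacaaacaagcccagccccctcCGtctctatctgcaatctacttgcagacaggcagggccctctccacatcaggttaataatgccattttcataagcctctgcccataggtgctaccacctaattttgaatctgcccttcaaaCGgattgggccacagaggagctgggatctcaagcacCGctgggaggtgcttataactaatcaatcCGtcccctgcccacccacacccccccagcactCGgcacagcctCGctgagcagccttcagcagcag
NDN: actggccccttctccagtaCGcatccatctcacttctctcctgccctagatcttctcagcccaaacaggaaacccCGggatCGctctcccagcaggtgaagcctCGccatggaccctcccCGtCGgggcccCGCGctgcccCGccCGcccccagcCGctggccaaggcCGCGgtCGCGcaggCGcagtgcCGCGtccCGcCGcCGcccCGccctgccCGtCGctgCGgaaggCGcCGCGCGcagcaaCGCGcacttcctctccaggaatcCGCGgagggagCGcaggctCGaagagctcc
DIRAS3: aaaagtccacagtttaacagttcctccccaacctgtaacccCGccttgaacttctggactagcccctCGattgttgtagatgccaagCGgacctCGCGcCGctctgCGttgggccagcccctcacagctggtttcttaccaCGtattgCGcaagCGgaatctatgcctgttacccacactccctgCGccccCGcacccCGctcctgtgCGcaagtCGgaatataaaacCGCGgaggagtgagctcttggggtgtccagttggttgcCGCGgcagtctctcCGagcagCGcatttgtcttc

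The 4 windows differ in CG content. NDN has 35 CG dinucleotides, more than 85.9% of the 35116 windows of the table, DIRAS3 has 21 (more than 60.5%), MEG3 has 19 (57.1%) and RTL1 has 6 (33.7%). GRB10, also called higher, has 5 windows, with 3 to 49 CG dinucleotides, a range that spans the 4 shown, and none is printed. CG content is therefore not set against the direction of the calls. The table held 25 of the 37 imprinted genes, with 54 windows and a median of 18.5 CG dinucleotides, against 14 over all windows. The letters TGCCGC, the core recognised when methylated by ZFP57, a zinc finger protein that maintains imprints, were found on either strand in 23 of the 54 windows (42.6%) and in 16.7% of all windows. NDN and MEG3 hold 1 match each, DIRAS3 2 and RTL1 0. Some windows of a gene overlap, and SNRPN and SNURF share the same window, so the 54 windows are not separate sequences. TGCCGC itself holds a CG, and the windows of the imprinted genes are richer in CG, so the shares with a match are not at equal CG content. A match is a description of letters and not a binding site.

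On chromosome 14, MEG3 and RTL1 rose, the 2 tested members of the set in the DLK1 to DIO3 cluster. MEG3 (ENSG00000214548), a long non-coding RNA expressed from the maternal copy and known to restrain growth in tumour cells, had 53.8 CPM in clone 2, 55.5 and 47.1 CPM in clone 6, against 18.9 and 23.5 CPM in wild type. All edited libraries lay above both wild-type libraries. The means were 52.1 ± 4.46 and 21.2 ± 3.25 CPM (SD, n = 3 and 2), and the log2 fold change was 1.30 (SE 0.141, adjusted p = 0.00233). In bulk RNA, more cells that make a transcript and more of it per cell cannot be told apart, here or below. RTL1 (ENSG00000254656), a retrotransposon-derived protein needed for the placenta in mice and expressed from the paternal copy, was far lower. It had 3.68 CPM in clone 2, 3.83 and 1.88 CPM in clone 6, against 1.06 and 1.16 CPM in wild type, with clone 6 replicate 2 nearest to wild type. Its log2 fold change was 1.48 (SE 0.378, adjusted p = 0.04). The RTL1 call was lost without clone 2 (adjusted p = 0.11), without clone 6 replicate 1 (0.106), without wild-type replicate 1 (0.239) or 2 (0.19), and with clone 2 and clone 6 replicate 1 summed (0.101). DLK1, the paternally expressed Notch-ligand-like protein that names the cluster, had 0 reads in every library.

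RTL1 lies opposite the non-coding genes MEG8 and AL132709.5. Whether counting used strand is not given in the sources here, so reads of the 2 strands cannot be told apart, and MEG3 also overlaps MEG8 on its own strand. AL132709.5 had 17.2 CPM in clone 2, 17.2 and 13.2 CPM in clone 6, against 5.96 and 7.76 CPM in wild type, a log2 fold change of 1.21 (adjusted p = 0.00894). MEG8 had 8.77 CPM in clone 2, 10.1 and 3.69 CPM in clone 6, against 3.14 and 2.81 CPM in wild type, with an adjusted p of 0.0763. From DLK1 to DIO3, bounds chosen after these values were seen and given with no test, 15 genes were tested. Of these 14 had a positive log2 fold change, where 52.4% of all genes tested did, and the median was 1.15. Some of the 15 genes overlap, as given above, so they are not separate observations. Called higher were MEG3, RTL1, AL132709.5 and the small nucleolar RNAs SNORD114-1 and SNORD114-20 (log2 fold change of SNORD114-20 1.21, adjusted p = 0.0237). Called lower was the antisense transcript DIO3OS, with 2 reads in the edited libraries against 49 in wild type. Over all genes tested, 7.64% were called higher and 9.49% lower. The wild-type over edited ratio of DIO3OS was 27.4 (95% counting interval 7.19 to 233, counting error only). SNORD114-1 had 0.563 to 0.919 CPM in edited libraries, against 0.139 and 0.11 CPM in wild type. SNORD114-1 and DIO3OS reached the 0.604 CPM of the filter only through the group in which they were high, so they are given as values. MIR381HG, SNORD113-3, SNORD114-10, SNORD114-13 and SNORD114-14 also reached it only in edited libraries. The medians of this cluster and its count of positive genes include these genes, whose direction the filter partly fixed. The median difference of the 15 genes from wild type was 1.27 for clone 2, 1.27 for clone 6 replicate 1 and 0.46 for clone 6 replicate 2 (log2 CPM).

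On chromosome 15, NDN fell in both clones. NDN (ENSG00000182636) encodes necdin, a growth-suppressing protein of the MAGE family, is expressed from the paternal copy and is among the genes lost in Prader-Willi syndrome. It had 11.3 CPM in clone 2, 15 and 9.88 CPM in clone 6, against 42.2 and 39.6 CPM in wild type, so every edited library was far below both wild-type libraries. The means were 12.1 ± 2.65 and 40.9 ± 1.83 CPM (SD, n = 3 and 2), and the log2 fold change was -1.77 (SE 0.18, adjusted p = 0.00192). Per kilobase of exon, NDN was at 6.25 CPM in edited and 21.2 CPM in wild-type libraries, whereas UBE3A was at 12.6 and 13.8 CPM. UBE3A, the ubiquitin ligase lost in Angelman syndrome and expressed from the maternal copy in neurons, had 160 CPM in clone 2, 156 and 169 CPM in clone 6, against 173 and 182 CPM in wild type. Its log2 fold change of -0.13 did not pass (adjusted p = 0.34), except without clone 6 replicate 2 (adjusted p = 0.0435).

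MKRN3 and the SNRPN transcript of the same cluster were below 10 CPM, and their groups overlapped. MKRN3, a ubiquitin ligase known as a brake on puberty, had 5.81 CPM in clone 2, 8.58 and 5.07 CPM in clone 6, against 8.41 and 9.35 CPM in wild type (log2 fold change -0.46, adjusted p = 0.235). SNRPN, a spliceosomal protein, had 0.645 to 1.46 CPM in edited and 1.06 to 1.54 CPM in wild-type libraries, and did not pass (log2 fold change -0.37, adjusted p = 0.577). SNURF, which shares its transcript with SNRPN, had 11 reads in all and was not tested, and MAGEL2 and ATP10A had 0 reads. SNRPN overlaps both SNURF and SNHG14 on its own strand. How reads shared by overlapping genes were counted is not known here, so the levels of SNRPN and SNURF are uncertain. SNHG14, the long host transcript that runs from SNRPN and overlaps UBE3A on the opposite strand, had 40.6 CPM in clone 2, 46.2 and 38.8 CPM in clone 6, against 65.5 and 60.1 CPM in wild type. It fell by 0.59 on the log2 scale (SE 0.111, adjusted p = 0.0155). From MKRN3 to ATP10A, bounds again chosen after the values were seen, all 20 tested genes had a negative log2 fold change. Over all genes tested 47.6% did. The median of the 20 genes was -0.41. NDN and SNHG14 were called lower, 2 of 20, against 9.49% of all genes tested, so the number of calls is no result about the cluster. Many of the 20 genes are small RNAs within SNHG14 and share its reads or its transcript. The median difference from wild type was -0.32 for clone 2, -0.28 for clone 6 replicate 1 and -0.65 for clone 6 replicate 2 (log2 CPM).

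**Figure D2:**
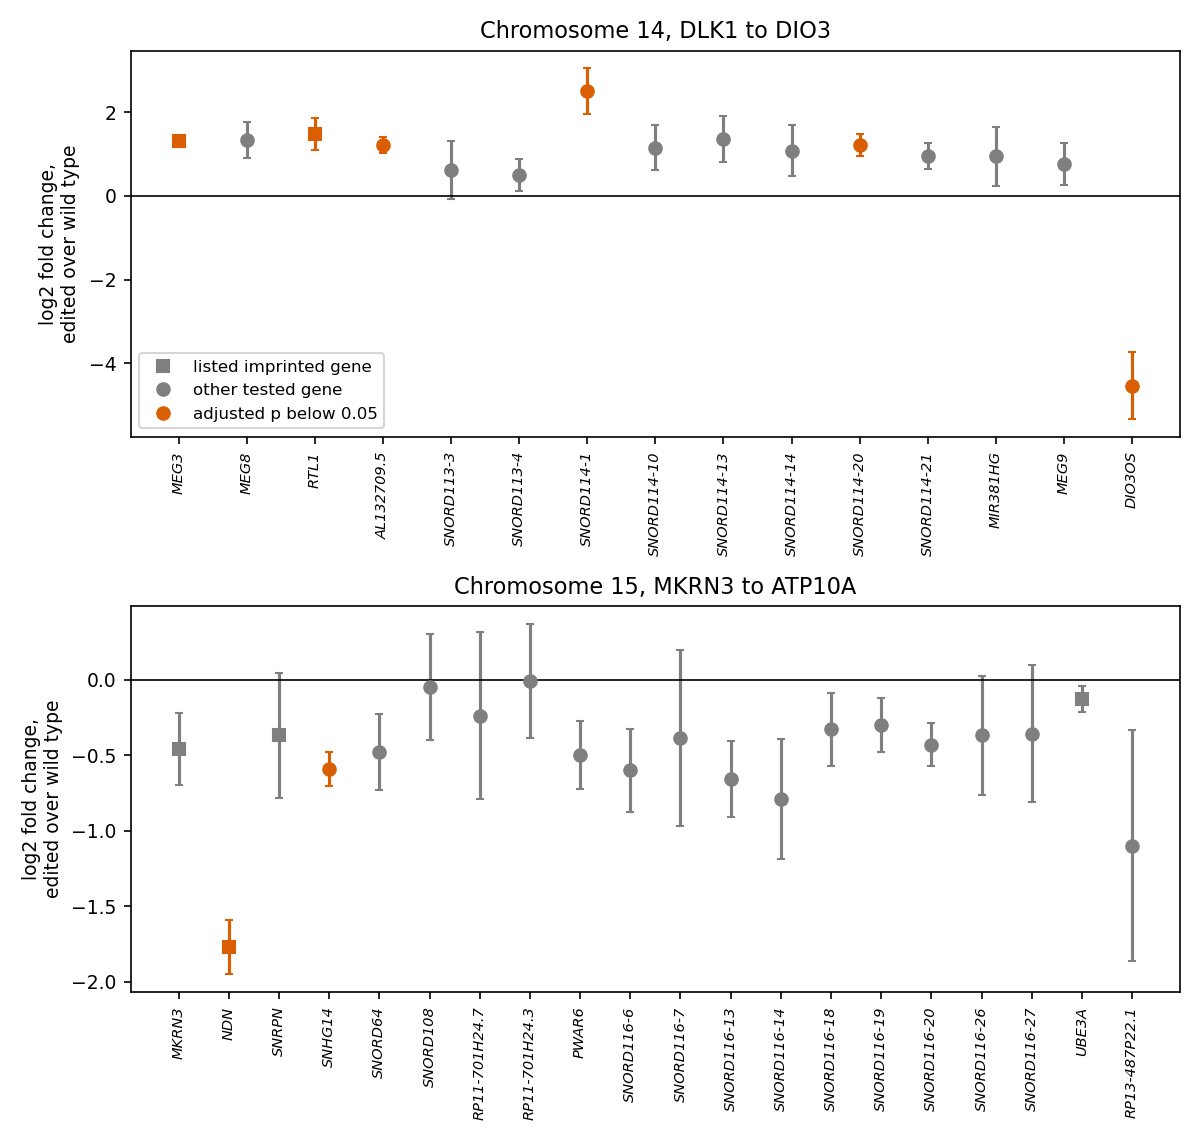
Log2 fold change of edited against wild type with its SE for every tested gene of the DLK1 to DIO3 cluster of chromosome 14 and the MKRN3 to ATP10A cluster of chromosome 15, in gene order. Of the chromosome 14 genes 14 of 15 are above 0, the exception being DIO3OS. Several of the 14 passed the filter on low counts only through edited libraries. All 20 chromosome 15 genes are below 0, with NDN the lowest of those called. Over all genes tested, 52.4% were above and 47.6% below 0.

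GRB10 (ENSG00000106070) on chromosome 7 rose in both clones. It encodes an adaptor that binds the insulin and IGF receptors and inhibits their signalling, and its expressed allele depends on tissue and isoform. GRB10 had 91.2 CPM in clone 2, 91.0 and 116 CPM in clone 6, against 37.2 and 36.5 CPM in wild type, with all edited libraries above both wild-type libraries. The means were 99.3 ± 14.3 and 36.8 ± 0.514 CPM (SD, n = 3 and 2), and the log2 fold change was 1.43 (SE 0.136, adjusted p = 0.0015). Of the 10 nearest tested genes outside the imprinted lists, 5 on each side, the median log2 fold change was 0.01, and ABCA13 was called higher (1.54).

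DIRAS3 (ENSG00000162595) on chromosome 1, a small GTPase of the Ras family that restrains growth and is expressed from the paternal copy, fell on few reads. It had 8 reads in clone 2, 4 and 7 reads in clone 6, against 31 and 24 reads in wild type, or 0.516, 0.306 and 0.438 CPM against 1.43 and 1.32 CPM. The groups did not overlap, and the log2 fold change was -1.68 (SE 0.357, adjusted p = 0.0222). The gene reached the filter on low counts only through wild type, where it was high, which limits what this call shows. The DIRAS3 call was lost without clone 6 replicate 1 (adjusted p = 0.0748), without wild-type replicate 1 (0.17) or 2 (0.12), and with clone 2 and clone 6 replicate 1 summed (0.0544). DIRAS3 lies opposite GNG12-AS1, which had 34 reads in clone 2, 19 and 24 in clone 6, and 40 in each wild-type library, and the 2 cannot be told apart where they overlap.

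**Figure D3:**
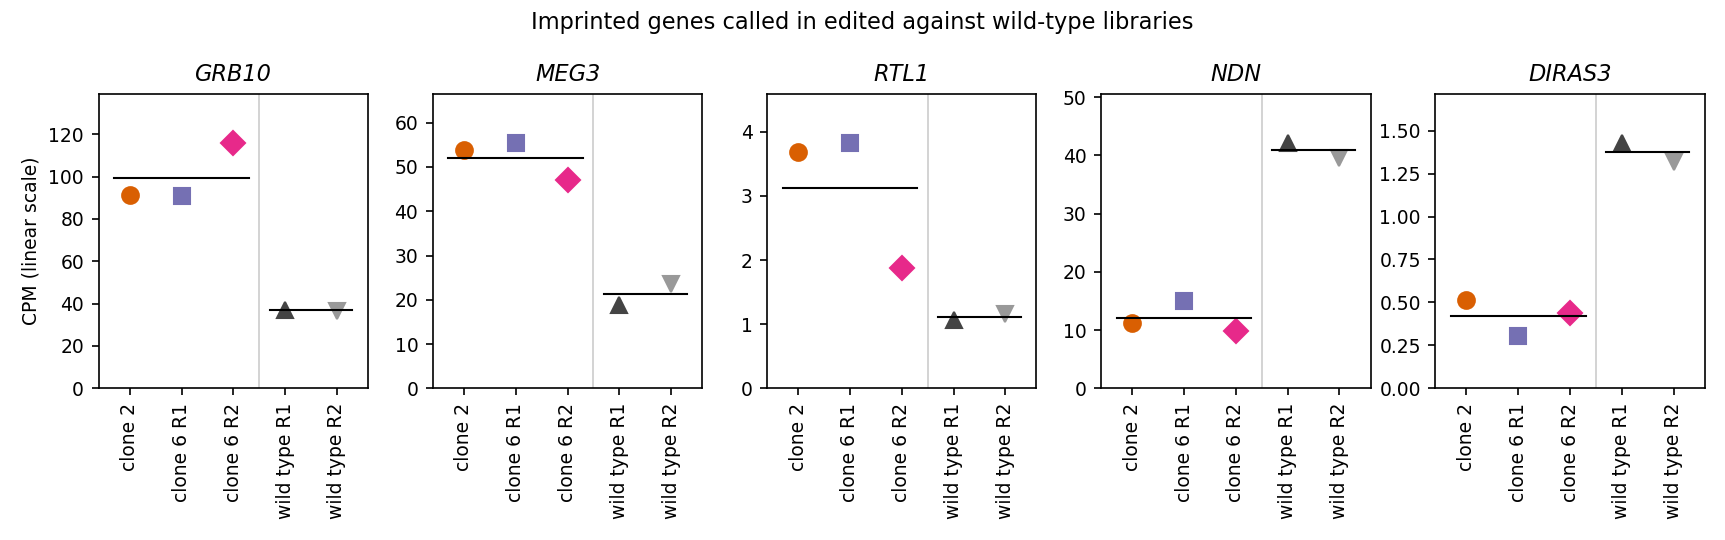
CPM in each library of the 5 imprinted genes called in edited against wild type, with edited libraries left and wild-type libraries right, a black line at each group's mean and a scale of its own for each gene. In no gene do the groups overlap; RTL1 varies most among edited libraries relative to its mean, 1.88 to 3.83 CPM.

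In each clone set against wild type, GRB10 and MEG3 were called higher and NDN lower. These were 3 of 26 imprinted genes (11.5%) for clone 6, where 8.98% of all genes were called (3.87% higher, 5.11% lower), and 3 of 26 for clone 2, where 3.81% were called (1.65% higher, 2.16% lower). Both comparisons use the same wild-type libraries and clone 2 has 1 library, assumed to vary like the other groups. GRB10 had a log2 fold change of 1.49 in clone 6 (adjusted p = 0.0049) and 1.31 in clone 2 (0.0198). MEG3 had 1.27 in clone 6 (adjusted p = 0.00993) and 1.34 in clone 2 (0.0222), and NDN had -1.72 in clone 6 (0.00897) and -1.86 in clone 2 (0.0262). RTL1 and DIRAS3 passed in neither clone alone: RTL1 had 1.34 in clone 6 (adjusted p = 0.106) and 1.72 in clone 2 (0.121), and DIRAS3 had -1.85 (0.0594) and -1.40 (0.249). Without wild-type replicate 1 or without replicate 2, none of the imprinted genes was called in clone 2. In clone 6 the MEG3 call was lost without wild-type replicate 1. These fits leave 1 wild-type library, and far fewer of all genes were called in them too. The losses are therefore no result about imprinted genes. Clone 6 set against clone 2 gave 0 calls among the 26 genes and 0 among all genes (0%) with edgeR. At an unadjusted p below 0.05, 0 of the 26 and 114 of the 16471 genes passed, and DESeq2 called 0 of the 26 and 2 of all genes. Without clone 6 replicate 1, 3 of the 26 genes were called lower in clone 6, namely BLCAP (log2 fold change -0.77), NNAT (-2.35) and KCNQ1OT1 (-0.84), where 5.33% of all genes were called. That fit sets clone 6 replicate 2 alone against the 1 library of clone 2, takes its spread from the wild-type pair only, and so rests on the difference between the clone 6 replicates given next.

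The clone 6 replicates lay far apart for these 3 genes. NNAT, neuronatin, is a paternally expressed membrane protein of the endoplasmic reticulum that lies within an intron of BLCAP, on the opposite strand. It had 2.90 CPM in clone 2, 4.75 and 0.563 CPM in clone 6, against 1.89 and 1.65 CPM in wild type, so the wild-type values lay between the clone 6 replicates. Its log2 fold change was 0.60 (SE 0.7, adjusted p = 0.599), and 1.07 without clone 6 replicate 2 (adjusted p = 0.0156). BLCAP, an apoptosis-related protein, had 108 CPM in clone 2, 109 and 63.5 CPM in clone 6, against 65.9 and 68.9 CPM in wild type. Its log2 fold change was 0.47 (SE 0.232, adjusted p = 0.212), and 0.67 without clone 6 replicate 2 (adjusted p = 3.84e-05). For KCNQ1OT1, the paternally expressed RNA that silences neighbouring genes on chromosome 11, the values were 15.7 CPM in clone 2, 21.4 and 8.76 CPM in clone 6, against 17.2 and 16 CPM in wild type. The median absolute log2 difference over the 26 genes was 0.41 between the clone 6 replicates, against 0.22 between clone 6 replicate 1 and clone 2 and 0.20 between the wild-type replicates. Over all genes these medians were 0.29, 0.10 and 0.15.

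**Figure D4:**
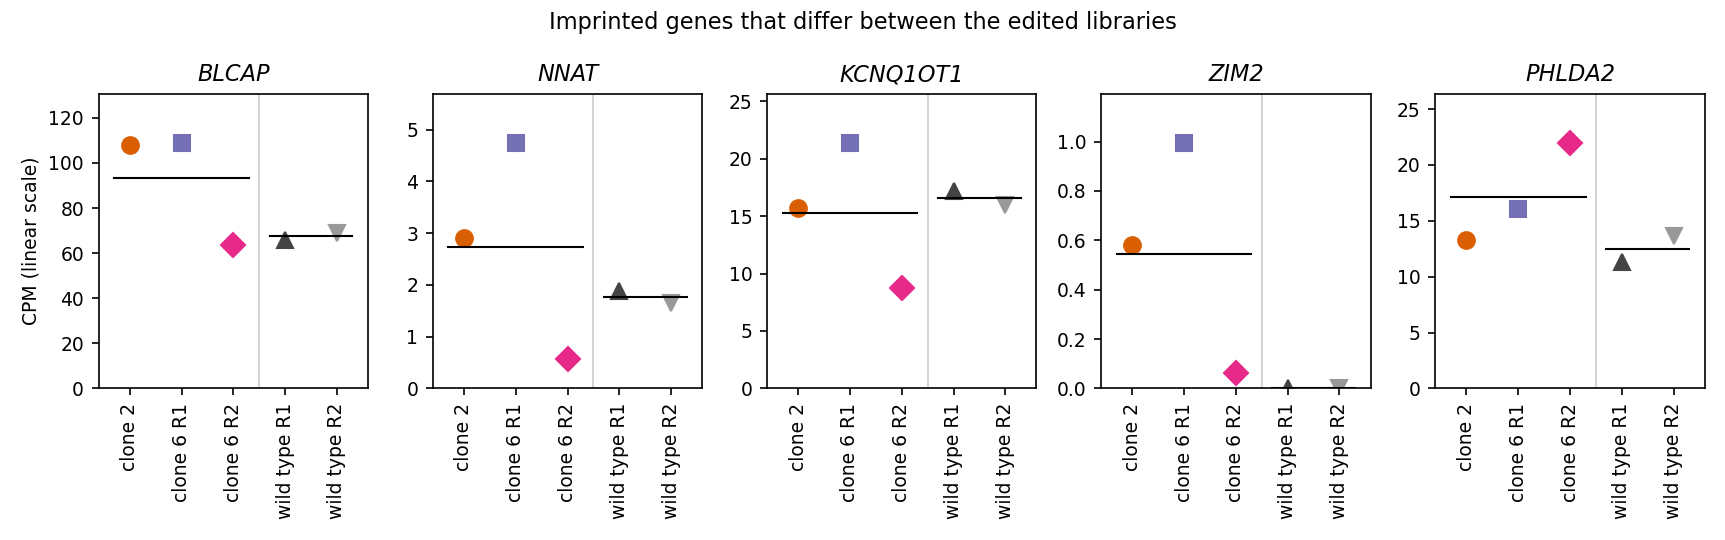
CPM in each library of BLCAP, NNAT, KCNQ1OT1, ZIM2 and PHLDA2, with edited libraries left and wild-type libraries right, a black line at each group's mean and a scale of its own for each gene. Clone 6 replicate 2 is the lowest edited library for the first 4 genes, at 0.563 CPM for NNAT against 4.75 CPM in clone 6 replicate 1, and the highest for PHLDA2.

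In the growth cluster of chromosome 11 no imprinted gene passed the test. H19, a maternally expressed non-coding RNA, had 5 reads in clone 2, 6 and 10 reads in clone 6, against 44 and 16 reads in wild type. The edited libraries were at 0.323, 0.46 and 0.625 CPM and the wild-type libraries at 2.03 and 0.88 CPM, and the groups did not overlap although the wild-type values differed widely. The log2 fold change of H19 was -1.63 (SE 0.496, adjusted p = 0.0673). The gene passed without clone 6 replicate 2 (adjusted p = 0.0203), without the filter on low counts (0.00144) and with the replicate number as a term (0.0441). Without wild-type replicate 1 the log2 fold change was -0.90 (adjusted p = 0.461), and without wild-type replicate 2 it was -2.10 (0.0793). IGF2, the paternally expressed growth factor beside it, had 6.07 to 7.81 CPM in edited and 7.43 to 8.60 CPM in wild-type libraries, overlapping (log2 fold change -0.23, adjusted p = 0.405). IGF2R, on chromosome 6, encodes the receptor that clears IGF2 and had 246 to 281 CPM in edited and 221 to 261 CPM in wild-type libraries (0.11, adjusted p = 0.529). CDKN1C, an inhibitor of cyclin-dependent kinases, had 2.56 to 3.68 CPM in edited and 2.09 to 3.51 CPM in wild-type libraries (0.11, adjusted p = 0.84). PHLDA2, which limits placental growth in mice, had 13.3 CPM in clone 2, 16.1 and 22.0 CPM in clone 6, against 11.3 and 13.6 CPM in wild type (0.46, adjusted p = 0.218). SLC22A18, a membrane transporter, had 4.00 to 5.82 CPM in edited and 2.73 to 3.58 CPM in wild-type libraries, not overlapping (0.59, adjusted p = 0.152).

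On the long arm of chromosome 7, TFPI2 was nearest to the threshold. This secreted inhibitor of serine proteases had 18.2 CPM in clone 2, 15.9 and 20.3 CPM in clone 6, against 28.1 and 24.2 CPM in wild type, with no overlap. Its log2 fold change was -0.52 (SE 0.145, adjusted p = 0.0518), and it was called lower under 7 of 13 alternative settings. PPP1R9A, the actin-binding neurabin, had 11.9 to 13.8 CPM in edited and 11.7 to 12.4 CPM in wild-type libraries (0.08, adjusted p = 0.71). COPG2, a coatomer subunit, had 10.7 to 11.8 CPM in edited and 7.70 to 9.06 CPM in wild-type libraries, not overlapping (0.42, adjusted p = 0.097). The paternally expressed genes of this arm were nearly silent: MEST and SGCE had 7 reads each and PEG10 had 2 over all libraries.

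Among the remaining genes, ZIM2 was seen only in edited libraries. This zinc finger gene had 9 reads in clone 2, 13 and 1 reads in clone 6, and 0 in both wild-type libraries, at least 3.6-fold higher in edited libraries against a floor of 3 reads per wild-type library. It did not pass (adjusted p = 0.0882). It was called with DESeq2 (adjusted p = 0.0159), without the filter on low counts (8.49e-05) and with the replicate number as a term (0.0227). Without clone 6 replicate 2, which was close to wild type, it was also called (0.00317). PEG3, with which ZIM2 shares exons, had 1 read. GNAS, the stimulatory G protein alpha subunit, was the most abundant of the imprinted genes, at 42.3 CPM per kilobase of exon in edited and 36.9 in wild-type libraries. GNAS had 559 to 567 CPM in edited and 470 to 512 CPM in wild-type libraries, not overlapping, and a log2 fold change of 0.20 (adjusted p = 0.157). INPP5F, a phosphoinositide phosphatase, had 37.1 to 42.0 CPM in edited and 33.2 to 34.7 CPM in wild-type libraries, also without overlap (0.19, adjusted p = 0.265). L3MBTL1, a chromatin-binding protein, had 4.44 to 7.43 and 6.27 to 7.53 CPM in edited and wild-type libraries (-0.24, adjusted p = 0.541). NAP1L5, of the nucleosome assembly family, had 6.19 to 9.81 and 6.55 to 7.90 CPM (0.16, adjusted p = 0.666), and ZDBF2 had 72.0 to 98.3 and 68.0 to 84.3 CPM (0.09, adjusted p = 0.763), in the same order. FAM50B and KCNK9 had 1 read each, and PLAGL1, a zinc finger regulator of growth, had 0.

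Grouped by the allele that textbooks give as expressed, 12 of 21 paternally expressed genes were tested, with 1 higher, 2 lower and a median log2 fold change of -0.18. Of 6 maternally expressed genes 5 were tested, with 1 higher, 0 lower and a median of 0.46. Of 10 genes whose allele depends on tissue or isoform, or is disputed, 9 were tested, with 1 higher, 0 lower and a median of 0.19. Each group holds too few genes for its median to be set against the others.

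A wider list of 55 other genes catalogued as imprinted gave 25 tested, of which 3 were higher and 5 lower in edited cells (32%, against 17.1% of all genes tested), with a median log2 fold change of 0.04. DLX5, KLF14, WT1 and NTM, the largest changes, reached the filter on low counts only through the group in which they were high, so they are given as values. Of the 21 genes that reached it in both groups, 1 was higher and 3 were lower. DLX5, a homeobox factor, was at 0.997 ± 0.133 CPM in edited and 0.175 ± 0.014 CPM in wild-type libraries (SD, n = 3 and 2). KLF14, a Kruppel-like factor, had 23 reads in edited and 1 in wild-type libraries, an edited over wild-type ratio of 20.6 (95% counting interval 3.34 to 847). WT1, a zinc finger factor, had 2 reads in edited and 53 in wild-type libraries, a wild-type over edited ratio of 29.6 (7.81 to 251). NTM, a cell adhesion protein, had 0 reads in edited and 24 in wild-type libraries, at least 2.92-fold lower in edited libraries against the same floor. With 1 edited library left out at a time the calls in this list ranged over 0 to 7 higher and 3 to 6 lower. Of all genes 9.32 to 36.9% were called in these fits. With a wild-type library left out, fewer genes of the list and fewer of all genes were called.

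Of 20 genes that write, remove or protect DNA methylation at imprints, 16 were tested, with 1 higher and 3 lower (25%, against 17.1% of all genes tested). DNMT3A, which places new methylation, had 23.7 CPM in clone 2, 23.2 and 24.1 CPM in clone 6, against 49.5 and 44.6 CPM in wild type, with edited libraries all below wild type. The log2 fold change of DNMT3A was -0.99 (SE 0.103, adjusted p = 0.0021). DNMT3B, the related enzyme, had 41.0 CPM in clone 2, 42.9 and 38.2 CPM in clone 6, against 28.4 and 28.1 CPM in wild type, and rose by 0.53 on the log2 scale (SE 0.105, adjusted p = 0.0184). The DNMT3B call was lost without clone 2, without clone 6 replicate 1 and without either wild-type library. It was also lost with clone 2 and clone 6 replicate 1 summed. UHRF1, which brings the maintenance methyltransferase to newly copied DNA, had 111 CPM in clone 2, 119 and 101 CPM in clone 6, against 164 and 174 CPM in wild type (-0.62, SE 0.0993, adjusted p = 0.00878). CTCF, the insulator protein of the H19 control region, had 69.7 CPM in clone 2, 70.8 and 64.4 CPM in clone 6, against 84.3 and 89.2 CPM in wild type (-0.35, SE 0.0903, adjusted p = 0.0434). The maintenance methyltransferase DNMT1 had a log2 fold change of 0.09 (adjusted p = 0.497) and TET1 one of -0.74 (adjusted p = 0.179). ZFP57, DNMT3L and DPPA3 had 0 reads. With 1 edited library left out at a time the calls ranged over 0 to 1 higher and 2 to 4 lower, where 9.32 to 36.9% of all genes were called. With a wild-type library left out, fewer of these genes and fewer of all genes were called.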

How the data were processed

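Per the labels' protocols, 5 total RNA libraries were sequenced on Illumina HiSeq. Trimmomatic, STAR, HTSeq and hg19 (GRCh37) are named in the submitters' processing notes, without versions, and the strand setting and annotation release are not stated in what was used here. Each deposited file holds raw, whole-number read counts for 1 library. Each file listed 63677 genes, of which 5772 had an empty value and 0 named no gene. The imprinted genes were matched by symbol, taking the identifier with most reads.

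Counts were analysed with edgeR 4.0.16 in R 4.3.3, with TMM scaling, filterByExpr on the 3 groups, the quasi-likelihood F test (3 residual degrees of freedom for genotype, 2 for the fit with 3 groups) and Benjamini-Hochberg adjustment over all 16471 genes, called below 0.05. Log2 CPM used a prior count of 2. The procedure was tested on simulated data. Alternatives covered scaling, the filter on low counts, DESeq2 1.42.0, single libraries left out, near-identical libraries summed and ribosomal RNA genes removed. Gene order, exon length and overlap came from GENCODE 29 (GRCh38), matched through gene identifiers, and no hg19 coordinates are printed.

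The members and lists were chosen with earlier results of these data known. All 37 members are named, with every library's value for those called, and up to 4 called genes of each other list, by largest change. Other genes and libraries singled out were chosen after their values were seen. Placental markers were near background, at 0.375 to 0.516 CPM summed in edited and 0.231 to 0.385 CPM in wild-type libraries.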

Additional observations from a re-analysis of the deposited data

How the results depend on the processing

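The values of the 26 tested genes were recomputed under each alternative, except H19 and ZIM2 with a filter of 1 CPM and ZIM2 without clone 2 or clone 6 replicate 1, where the filter removed them. Of 334 such values 297 kept both direction and side of the threshold. DIRAS3 and RTL1 lost their call in 9, 8 genes gained one in 20, and 8 values of 6 genes turned sign. With 1 library left out at a time, the log2 fold change ran from -0.09 (without clone 6 replicate 2) to 0.25 for ZDBF2, which was also -0.06 without wild-type replicate 2. It ran from -0.0039 (without clone 2) to 0.31 for NAP1L5, from -0.01 (without wild-type replicate 2) to 0.24 for IGF2R, and from -0.44 to 0.14 (without clone 6 replicate 2) for KCNQ1OT1. For CDKN1C it ran from -0.21 (without wild-type replicate 2; -0.04 without clone 6 replicate 1) to 0.53, and for NNAT from -0.04 (without clone 6 replicate 1) to 1.07. The cause was not tested.

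Without the filter on low counts, the imprinted genes gave 5 higher and 4 lower calls in edited against wild type (13.2% of all genes called), 4 and 3 in clone 6 (9.74%) and 5 and 2 in clone 2 (5.82%), the wider list 5 higher and the regulators 5 lower. With clone 2 and clone 6 replicate 1 summed, 2 imprinted genes were higher and 1 lower, where 9.11% of all genes were called. The wider list then gave 1 higher and 4 lower, and the regulators 0 and 2. A filter of 1 CPM left 1 gene of the wider list higher and 4 lower (20.1% of all genes called). Leaving out 1 edited library at a time gave 2 to 6 higher and 1 to 5 lower calls in edited, where 9.32 to 36.9% of all genes were called. These fits gave 0 to 7 and 3 to 6 for the wider list and 0 to 1 and 2 to 4 for the regulators. The other fits with 1 library left out put 1 library in a group. In them the calls of imprinted genes and of all genes mostly moved together. Over all genes 5971 were called without clone 6 replicate 2, 500 without wild-type replicate 1 and 2822 with all libraries.

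A replicate block, with the replicate number as a term, gave 6 higher and 4 lower imprinted genes in edited (27.3% of all genes called) and 4 and 2 in clone 6 (15.6%), 5 higher in the wider list and 5 lower regulators. The labels tie the number to no shared batch, and with 2 pairs, whose differences correlated at 0.17 over 16471 genes, the samples share only a number.

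Genes with few reads, such as DIRAS3, H19 and ZIM2, are limited by depth: 3 reads per library is the floor used.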
